A study of Mus musculus with 14 samples.

Results

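Integrins and the proteins that tie them to the actin cytoskeleton were followed here as a family of 37 mouse genes, chosen by gene symbol. The family held 6 leukocyte integrin subunits, 17 matrix-binding integrin subunits (11 α and 6 β) and 14 focal adhesion components. All 37 symbols were found among the 54532 genes listed for liver and among the 16481 genes listed for pancreatic stellate cells (PSCs).

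The livers came from mice that received 100000 KPCY cells, a mouse pancreatic cancer line with a YFP label, in the tail of the pancreas, and were taken 20 days later. Mice were 8 to 12 weeks old and of both sexes, and their strain was not given in the sources used here. The WT group (n = 2 livers) consisted of Piezo1 fl/fl mice without Cre, the TRPV4-KO group (n = 3) lacked Trpv4 in every tissue, and the GSK219 group (n = 3) was WT given 10 mg/kg of the TRPV4 antagonist GSK2193874 daily by gavage. All 8 animals carried the injected cells, which had intact TRPV4, so no liver without a tumor graft was compared, and whether the WT animals received vehicle was not stated. The PSCs were mouse cells kept for 3 days on Matrigel-coated plates and given DMSO or 25 µM Yoda1, an agonist of the mechanosensitive channel PIEZO1 (n = 3 preparations, each with both treatments). The time in Yoda1 was given as 24 hours in one source and 72 hours in another.

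An integrin is a pair of 1 α and 1 β chain that spans the membrane, binds extracellular matrix or a ligand on another cell outside, and recruits talin and kindlin to its β tail inside. Vinculin, α-actinin, filamin, zyxin and tensin then couple the pair to actin, and FAK, Src, p130Cas and the ILK, PINCH and parvin complex signal from the same site. Stellate cells and other fibroblasts use chiefly β1 and αv pairs to hold collagen and fibronectin, whereas β2 and β7 integrins and α4 serve the adhesion and homing of leukocytes.

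Depth was 15567031 to 17395299 counts per liver and 27312894 to 39070539 reads per PSC library, and libraries of a group differed by more than sampling noise (chi-square per degree of freedom 7.53 to 111). Trpv4 itself had 43 and 53 counts in the WT livers, 15, 5 and 23 in the TRPV4-KO livers and 20, 30 and 36 in the GSK219 livers. The knockout livers thus kept some Trpv4 reads, and TRPV4-KO replicate 3 lay above GSK219 replicate 1. Piezo1 had a log2 difference of −0.08 between Yoda1 and DMSO (SE 0.09, limma adjusted p 0.62).

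Promoter sequence was available from RefSeq (GRCm38.p6) for 29 of the 37 genes, in 35 windows of 250 bases before the start of transcription. The windows below belong to Itgb7, Itga1 and Itga5, integrin genes that changed with Yoda1, and to Fermt2 and Vcl, focal adhesion genes whose windows hold a CArG box, the motif of the actin-regulated factor SRF. Each is given 5′ to 3′ on the gene's own strand and ends before the gene as the liver table places it. Capitals mark a CArG box and, in Vcl, also a TEAD motif (GGAATG).
Itgb7, chr15:102231945-102232185, minus strand: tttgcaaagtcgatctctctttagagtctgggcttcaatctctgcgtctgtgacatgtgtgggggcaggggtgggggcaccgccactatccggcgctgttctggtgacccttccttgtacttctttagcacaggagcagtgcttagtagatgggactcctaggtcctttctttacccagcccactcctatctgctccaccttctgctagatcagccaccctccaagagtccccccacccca
Itga1, chr13:115101965-115102214, minus strand: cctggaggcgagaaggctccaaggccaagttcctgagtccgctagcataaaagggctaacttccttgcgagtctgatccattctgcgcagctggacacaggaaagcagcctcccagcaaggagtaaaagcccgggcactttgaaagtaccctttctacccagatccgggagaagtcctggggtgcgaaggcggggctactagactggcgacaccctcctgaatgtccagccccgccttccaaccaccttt
Itga5, chr15:103366792-103367041, minus strand: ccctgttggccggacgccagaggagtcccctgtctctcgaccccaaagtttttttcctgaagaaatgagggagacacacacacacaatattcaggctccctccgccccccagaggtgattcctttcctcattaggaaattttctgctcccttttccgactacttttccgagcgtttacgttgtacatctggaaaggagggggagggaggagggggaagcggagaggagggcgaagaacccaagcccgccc
Fermt2, chr14:45530119-45530315, minus strand: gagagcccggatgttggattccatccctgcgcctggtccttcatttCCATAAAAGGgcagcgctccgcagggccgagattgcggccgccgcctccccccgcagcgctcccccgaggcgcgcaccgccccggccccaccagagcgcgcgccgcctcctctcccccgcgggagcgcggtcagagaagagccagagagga
Vcl, chr14:20929148-20929397, plus strand: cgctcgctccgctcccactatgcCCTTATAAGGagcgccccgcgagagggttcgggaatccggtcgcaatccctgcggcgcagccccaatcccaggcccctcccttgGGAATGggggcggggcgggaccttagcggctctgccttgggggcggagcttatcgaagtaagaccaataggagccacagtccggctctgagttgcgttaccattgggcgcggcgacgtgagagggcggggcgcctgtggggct

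Both strands of every window were searched for the CArG box, the AP-1 motif TGANTCA and the TEAD motif GGAATG. A CArG box stood in 3 of the 35 windows, at 204 bases before the RefSeq start in Fermt2, 227 in Vcl and 50 in Itgb6. Of all 32851 windows of this length, 1.47% held a CArG box. The Itgb6 match belongs to a RefSeq start far inside the gene as the liver table places it, and the Itgb6 window at the gene's own 5′ end held none. Several other windows reach into their genes, and of those printed the stretches of Fermt2 and Itgb7 were shortened for this reason to 197 and 241 bases. The AP-1 motif was found in 3 of the 35 windows, those of Actn4, Zyx and Itgax, and in 6.75% of all windows. The TEAD motif was found in 4 of the 35, those of Actn4, Flna, Itgb1 and Vcl, and in 12.6% of all windows. The Flna window and the Zyx match lie inside their genes as the liver table places them, so neither match is upstream of the gene so placed. The windows of Itgb7, Itga1 and Itga5 held none of these letters. A match describes the letters only and is not a bound site.

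In PSCs, the family was led by β1 and by actin crosslinkers. On the per-length scale (RPKM, reads per kilobase of exon, scaled to the library total), the DMSO means were 515 ± 8.83 (SD, n = 3) for Itgb1, the β chain shared by most matrix receptors, and 513 ± 18.2 for Flna, the actin crosslinker filamin A. Actn1 (α-actinin 1) followed at 379 ± 11.5 and Itga5, the fibronectin receptor chain, at 287 ± 33.1. The ranges of Itgb1 and Flna overlapped, as did those of Itga5 and Zyx (zyxin, 237 ± 33.2), whereas Flna and Actn1 did not overlap. The lowest of the 14 focal adhesion components were the kinase genes Src, at 32.7 ± 0.83, and Ptk2, which encodes FAK, at 11.8 ± 0.23. The 6 leukocyte integrin subunits lay between 0.04 RPKM (Itgax) and 1.33 RPKM (Itgb2), and Itgal, Itgax, Itga4 and, with DMSO, Itgb7 rested on few reads.

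**Figure D1:**
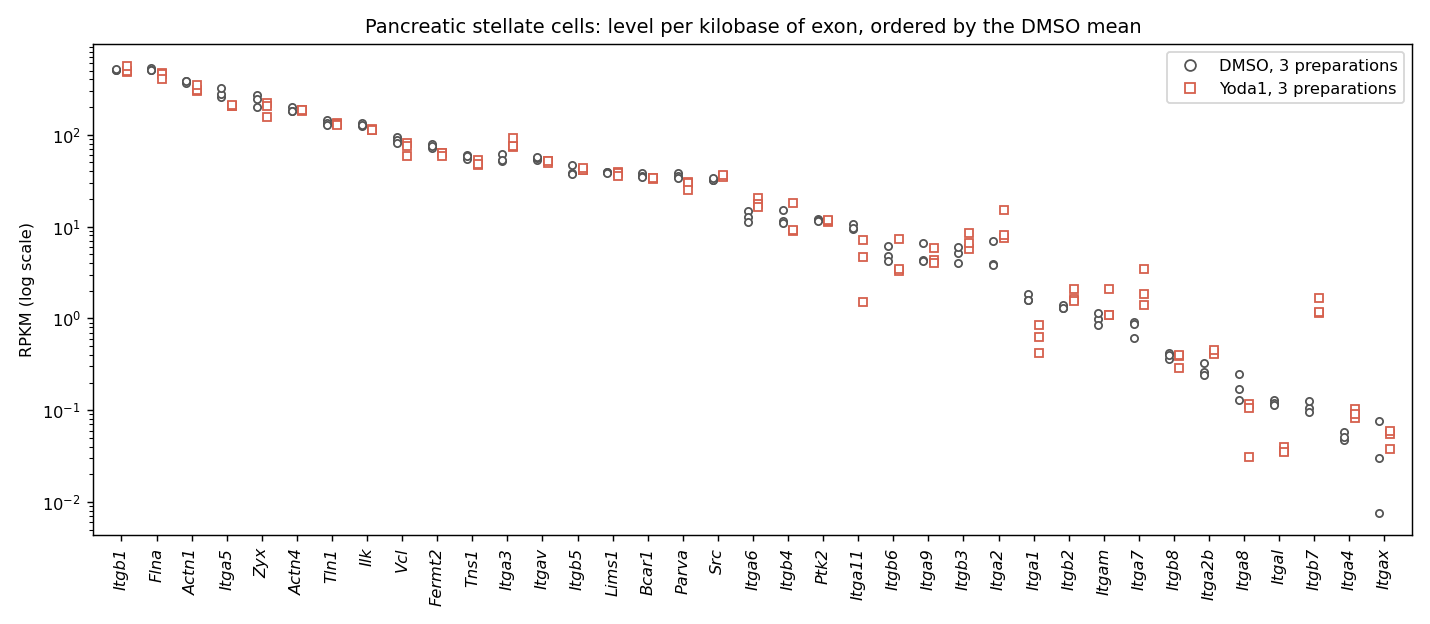
Level of the 37 genes in PSCs per kilobase of exon (RPKM, log scale), ordered by the DMSO mean; circles are the 3 DMSO preparations and squares the 3 Yoda1 preparations. Itgb1 and Flna stand highest, and the separation of circles from squares is widest for Itgb7, from a DMSO mean of 0.11 RPKM to 1.32 RPKM.

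With Yoda1 a β chain of leukocyte integrins rose, and a leukocyte α chain and the collagen receptor chain α1 fell. Both leukocyte chains met the level needed for a test through the group where each was high. Of 36 genes with enough reads to test, 1 rose and 2 fell past an adjusted p of 0.05 and a log2 difference of 1, where 0.733% and 0.786% of all 15145 genes tested did so. At any size of difference 1 rose and 6 fell (2.19% and 2.47% of all genes). The DMSO and Yoda1 values did not overlap for 7 genes that were higher and 18 that were lower with Yoda1, against 14.9% and 15.1% of all genes. In these bulk samples fewer cells of a type and less RNA per cell cannot be told apart, and deposited values are read counts divided by 1 size factor per library.

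Itgb7, the β7 chain that pairs with α4 on homing lymphocytes, had values of 9.98, 8.97 and 12.1 in DMSO preparations 1, 2 and 3. With Yoda1 the same preparations stood at 101, 102 and 145. All 3 Yoda1 values were above every DMSO value, a 10.2-fold rise (log2 difference 3.35, SE 0.23, limma adjusted p 0.00457), and the smallest library value rested on 8 reads. On the per-length scale this brought β7 from 0.11 to 1.32 RPKM, next to the β2 chain Itgb2 at 1.74 RPKM with Yoda1.

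The partners of β7 and β2 did not follow it in size. Itga4, the α4 chain, had 27.4, 22.4 and 25.2 with DMSO and 46.1, 36.2 and 39.3 with Yoda1. The groups did not overlap, but the difference missed the threshold (log2 0.67, SE 0.20, limma adjusted p 0.11). Itgal, the αL chain of LFA-1, stood at 28.7, 26.9 and 26.2 with DMSO and at 7.53, 8.23 and 7.22 with Yoda1. It fell 3.27-fold (log2 difference −1.71, SE 0.23, limma adjusted p 0.0153), on 8 to 26 reads per library. A gene was tested where at least 3 libraries reached a value of 10, which Itgal met through its DMSO libraries alone and Itgb7 through its Yoda1 libraries and DMSO preparation 3, so each was tested through the group where it was high. With no filter on low values the adjusted p was 0.0159 for Itgal and 0.00419 for Itgb7. The Itgal call was lost without Yoda1 replicate 1 or 2, and Itgal was not tested when any DMSO library was left out.

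The other leukocyte chains gave no call. Itgb2, the common β2 chain, had 135, 144 and 139 with DMSO and 157, 148 and 199 with Yoda1, and Itgam, the αM chain of Mac-1, had 167, 146 and 200 against 173, 172 and 327. Itgax, the αX chain, had at most 11 reads in a library and was not tested. Itgb2 and Itgam were highest in Yoda1 preparation 3. The level of Itgam is uncertain, since 68.7% of its exonic bases overlap another gene model on the same strand.

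Markers of leukocytes did not all differ in the same direction. Of 12 macrophage markers 10 were listed and 9 tested, 6 with a difference below 0 (median −0.39) and none past the test. C1qc, a complement gene of macrophages, had 198 to 272 with DMSO and 68.3 to 148 with Yoda1, and Cd68 200 to 258 and 274 to 675. The macrophage markers had summed values of 3407 to 3794 with DMSO and of 3101, 3124 and 4769 with Yoda1, the last in preparation 3. Of 12 lymphocyte markers only Cd79a and Trac were listed, and Trac went from 66.1 to 81.9 with DMSO to 26.5 to 38.6 with Yoda1. Trac was the 1 lymphocyte marker tested, and it fell past the threshold (log2 difference −1.22, limma adjusted p 0.0283). Neither Cd3e, Cd3d nor Cd3g was among the genes listed, and the part of other cells in the values of Itgal and Itgb7 was not tested.

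Of the collagen receptors, the α1 chain fell and the α2 chain was higher in each preparation. Itga1, whose pair with β1 binds collagen IV and collagen I, had 1152, 1001 and 1034 with DMSO and 504, 372 and 245 with Yoda1. It fell 2.96-fold (log2 difference −1.56, SE 0.25, limma adjusted p 0.0244), with no overlap. The adjusted p was 0.064 to 0.11 without any single DMSO library or Yoda1 replicate 2, and 0.053 with limma without trend and robust estimation. Itga2, the α2 chain, had 960, 915 and 1721 with DMSO and 1713, 1847 and 3388 with Yoda1, a log2 difference of 0.83, 1.01 and 0.98 in preparations 1, 2 and 3. Preparation 3 stood above the other preparations under each treatment, the limma adjusted p was 0.17, and with the preparation as a block the adjusted p was 0.00109. Itga11, the fibroblast collagen receptor chain α11, had 1864, 1625 and 1750 with DMSO and 1177, 765 and 244 with Yoda1. The groups did not overlap, but the size of the drop varied from −0.66 in preparation 1 to −2.84 in preparation 3 (limma adjusted p 0.16).

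Summed duct marker levels were highest in preparation 3, and several of these chains are also made by epithelium. All 9 duct epithelial markers were listed, with summed values of 84727, 83345 and 121235 with DMSO and of 69194, 75724 and 153415 with Yoda1 in preparations 1, 2 and 3. Itgb4, the β4 chain of hemidesmosomes, stood at 2736, 2606 and 3720 with DMSO and at 2009, 2053 and 3931 with Yoda1. Itgb6, an epithelial β chain that pairs with αv, had 1168, 1024 and 1535 against 744, 772 and 1631. Itga2, Itgb4 and Itgb6 were highest in preparation 3 under both treatments, as were the duct markers, and neither β chain passed the test of treatment (limma adjusted p 0.66 and 0.59). By contrast, Itga6 was lowest in preparation 3 under both treatments (3570 with DMSO and 4619 with Yoda1), and Itga3 was highest there with Yoda1 only. The 5 acinar markers listed also peaked in preparation 3, with sums of 981, 3437 and 5819 with DMSO and of 1214, 4291 and 11650 with Yoda1. The part of epithelial cells in the value of Itga2 was not tested.

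The fibronectin receptor fell while laminin receptor chains were higher without passing the unpaired test. Itga5, the α5 chain, had 43426, 46805 and 55954 with DMSO and 32796, 32498 and 32828 with Yoda1. It fell 1.48-fold (log2 difference −0.57, SE 0.10, limma adjusted p 0.0295), and its share of the summed α chain RPKM went from 66.0% ± 2.81 to 54.7% ± 1.58 (SD, n = 3), with no overlap. The adjusted p was 0.054 to 0.13 without DMSO replicate 1 or 2 or Yoda1 replicate 1 or 2. Itgav, the αv chain of vitronectin and latent TGF-β receptors, had 19209, 20098 and 21373 against 17586, 16565 and 17291, and its share of the α chains, 12.6% and 13.2%, overlapped.

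Itga3, a laminin-332 receptor chain, had 12068, 10010 and 10749 with DMSO and 13610, 13634 and 16394 with Yoda1, and its share of the α chain RPKM went from 12.9% ± 1.95 to 20.98% ± 1.65. Itga6, the second laminin receptor chain, had 4505, 3882 and 3570 against 5981, 5036 and 4619, and Itga7, the muscle laminin receptor chain, had 168, 252 and 248 against 362, 475 and 868. The groups did not overlap for Itga3, Itga6 or Itga7, and their limma adjusted p-values were 0.079, 0.13 and 0.089. With the preparation as a block all of Itga2, Itga3, Itga6 and Itga7 passed an adjusted p of 0.05, with Itga7 (log2 difference 1.27, adjusted p 0.011) also past the size threshold. In that fit 2 members rose and 2 fell past both thresholds, against 1.66% and 1.32% of all genes.

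The β chains of matrix receptors gave no call among 6 tested. Itgb1 had 70605, 70781 and 75078 with DMSO and 63491, 63626 and 71037 with Yoda1, groups that overlapped. Itgb3, the β3 chain of the vitronectin receptor, was higher in each preparation (log2 difference 0.43, 0.27 and 0.37), with an adjusted p of 0.33 and, with the block, 0.0125. Itgb5 and Itgb8, which also pair with αv, had log2 differences of −0.07 and −0.25 with limma adjusted p-values of 0.72 and 0.41. Among the remaining α chains, Itga8 had 62.3, 32.5 and 44.4 against 27.3, 24.7 and 7.22, Itga9 1136, 1108 and 1765 against 1071, 973 and 1407, and Itga2b, the platelet αIIb chain, 61.1, 48.2 and 46.4 against 73.4, 70.8 and 77.0. None of Itga8, Itga9 and Itga2b passed the test, and the groups overlapped for Itga9 alone.

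**Figure D2:**
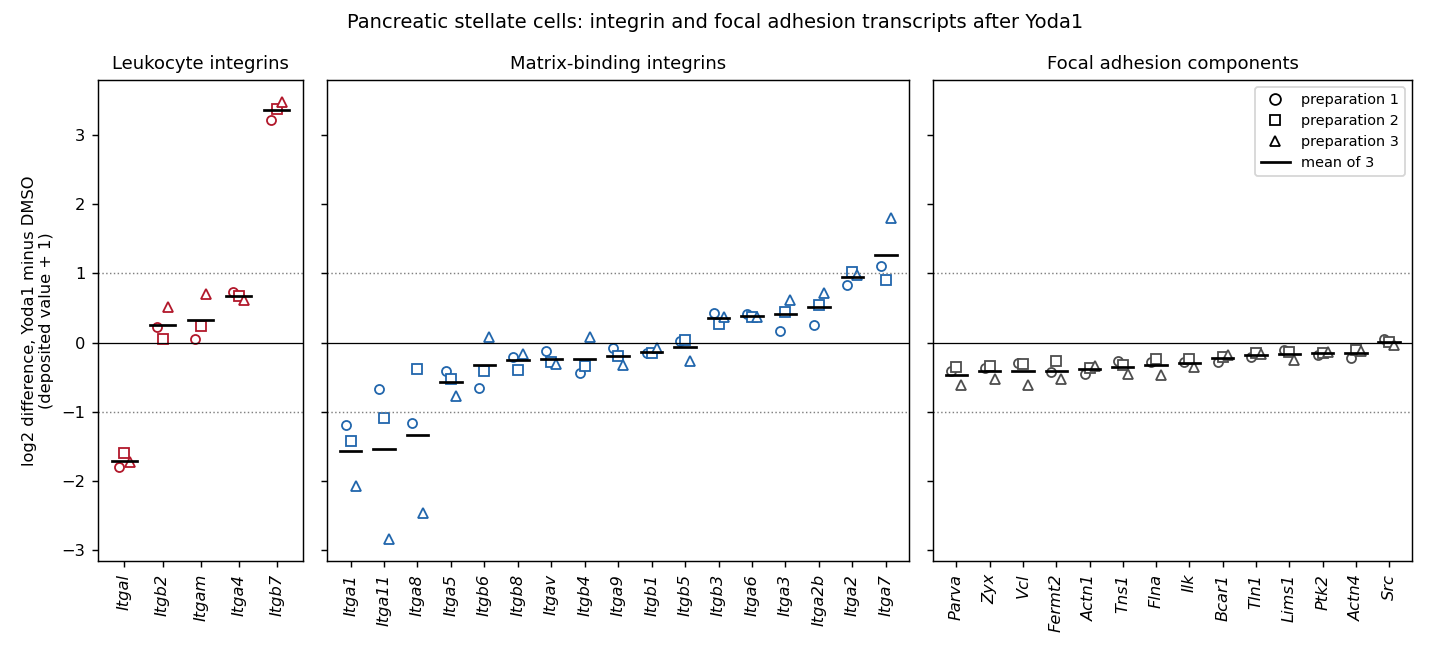
Difference on the log2(deposited value + 1) scale between Yoda1 and DMSO for the 36 genes tested, with 1 symbol per preparation, a bar for the mean of 3 and dotted lines at a difference of 1 in each direction. The means of 6 genes lie outside the lines, Itgb7 and Itga7 above and Itgal, Itga1, Itga11 and Itga8 below, of which Itgb7, Itgal and Itga1 passed the test, and the focal adhesion components lie within the lines, from −0.46 (Parva) to 0.00 (Src).

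Most focal adhesion components had differences below 0, none of them large. Of the 14, 13 had a difference below 0, the groups did not overlap in 12 (15.1% of all genes were lower without overlap), and the median difference was −0.31 on the log2 scale beside −0.01 for all genes tested. Of the 14, 3 fell at an adjusted p under 0.05, where 2.47% of all genes did, and none reached a log2 difference of 1. Of the 14, 0 passed when any of the 3 DMSO libraries or Yoda1 replicate 1 or 2 was left out, and 5, the 3 among them, passed without Yoda1 replicate 3. With limma without trend and robust estimation 0 passed as well. By contrast, 7 passed with DESeq2 on the recovered reads and 9 with the preparation as a block, where 9.55% of all genes fell. For the other fits this share is not given here. Past both thresholds, 178 of 15518 genes fell with DESeq2 and 167 of 14951 without Yoda1 replicate 3. Limma without trend and robust estimation gave 82 of 15145, and the main fit 119 of 15145. On a scale of reads divided by the library total, the median of all genes moved up by 0.11, the 13 stayed below 0 with a median of −0.19, and the adjusted p of Fermt2 was 0.0443.

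Fermt2 encodes kindlin-2, which activates integrins at the β tail. It had 14024, 12627 and 13572 with DMSO and 10415, 10476 and 9474 with Yoda1 (log2 difference −0.41, SE 0.07, limma adjusted p 0.0281). Actn1, whose product bundles actin at adhesions, had 71967, 68697 and 75343 against 52490, 53466 and 59739 (−0.38, SE 0.07, adjusted p 0.0396). Both fell without overlap between the groups, by 1.32-fold and 1.30-fold, and on the library-total scale the adjusted p of Actn1 was 0.075.

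Ilk, the gene of integrin-linked kinase, had 12501, 11497 and 12349 with DMSO and 10249, 9799 and 9717 with Yoda1 (log2 difference −0.29, SE 0.06, limma adjusted p 0.0438). In the annotation 89.7% of its exonic bases overlap other genes, chiefly Taf10 on the opposite strand, so its value is uncertain, and on the library-total scale its adjusted p was 0.10. Its partners Parva (α-parvin) and Lims1 (PINCH-1) had log2 differences of −0.46 and −0.17 with adjusted p-values of 0.053 and 0.16. Parva had 13381, 12200 and 12082 with DMSO against 10021, 9512 and 7920 with Yoda1, and the groups did not overlap for either partner.

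Of the links to actin, none passed the unpaired test apart from Actn1, and Vcl, Zyx, Flna and Tns1 passed with the preparation as a block (adjusted p 0.017, 0.00828, 0.024 and 0.0121). Vcl (vinculin) had 26313, 24488 and 23138 with DMSO and 21369, 19750 and 15155 with Yoda1, and Zyx 49158, 44222 and 38160 against 38233, 34970 and 26591. Both were lowest in preparation 3 under each treatment, and the groups overlapped for Zyx and not for Vcl, 25.5% of whose exonic bases overlap Ap3m1 on the opposite strand. Flna had 170984, 160211 and 165756 against 141422, 136218 and 119257 (log2 difference −0.33, limma adjusted p 0.077), and Tns1, the gene of tensin-1, a log2 difference of −0.35 (adjusted p 0.065). Tln1 (talin-1) and Actn4 (α-actinin 4) had −0.18 and −0.15. The signaling members gave −0.22 for Bcar1 (p130Cas), −0.16 for Ptk2 and 0.00 for Src, whose values of 4768, 4822 and 5159 with DMSO and 4929, 4839 and 5015 with Yoda1 overlapped.

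By the labels, each preparation was given both treatments. The deviations of same-numbered DMSO and Yoda1 libraries from their group means correlated at 0.43, 0.26 and 0.53. With the preparation as a block, 6 of 36 genes rose and 13 fell at an adjusted p under 0.05, against 8.68% and 9.55% of all genes. The 6 were Itgb7, Itga2, Itga3, Itga6, Itga7 and Itgb3. The 13 were Itgal, Itga1, Itga5, Itgav and 9 focal adhesion components, namely Vcl, Zyx, Ilk, Parva, Actn1, Flna, Fermt2, Bcar1 and Tns1.

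The summed level of stellate and fibroblast markers was lower with Yoda1, as the focal adhesion components were, but its genes did not all differ in the same direction. All 10 were listed, 8 with a difference below 0 (median −0.65), with a summed value of 819979 to 913691 with DMSO and of 409639 to 523310 with Yoda1, lowest in Yoda1 preparation 3. Acta2, smooth muscle actin, went from 120680 to 133472 with DMSO to 27293 to 51408 with Yoda1, whereas Pdgfra had 2803 to 3874 with DMSO and 4956 to 7428 with Yoda1. Of 8 hepatic stellate markers 6 were listed, 4 with a difference above 0 (median 0.22), among them Hgf at 82.3 to 107 with DMSO and 130 to 163 with Yoda1. Of 8 endothelial markers 6 were listed, with a summed value of 1802 to 2169 with DMSO and of 1240 to 1451 with Yoda1. Against this sum, 4 of the 6 had a difference above 0 and 2 below (median 0.68). The part of a change in cell content in the focal adhesion values was not tested.

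In livers, no member passed the threshold in any of the 3 comparisons, and the leukocyte integrins had the highest median difference between WT and either other group. Enough reads were present to test 34 of the 37 genes, since Itga2, Itga11 and Itgb6 had at most 0.68 CPM (counts scaled to the library total after TMM normalization, as are the RPKM of the livers). Between WT and TRPV4-KO livers edgeR called 0 of 34 genes, with 0.265% of all 15118 genes called, and 7 of 34 had an unadjusted p under 0.05, against 17.1% of all genes. DESeq2 called 2 of the 34 higher in WT, Itgal and Src, where 2.41% of all genes were called higher. A replicate block in edgeR gave the same 2 genes (2.32% of all genes), and without TRPV4-KO replicate 3 edgeR called 4, namely Itgam, Itga9, Src and Flna (3.83%).

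On average 28 of the 34 genes were higher in WT livers, as were 48.8% of all genes. The groups did not overlap for 10 genes higher in WT, against 17.7% of all genes, and for 1 gene, Parva, that was lower, against 15.5%. The median log2 fold change was 1.14 for the 6 leukocyte integrins, 0.28 for the 14 matrix-binding integrins tested and 0.19 for the 14 focal adhesion components, beside −0.01 for all genes tested. Without WT replicate 1 the medians were 0.58 for the leukocyte integrins, 5 of 6 of which stayed above 0, and 0.16 for the matrix-binding integrins, and without TRPV4-KO replicate 3 they were 1.71 and 0.51.

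Itgal and Itgb2, which together make LFA-1, were the leukocyte chains that separated WT from TRPV4-KO livers. Itgal had 95.1 and 81.8 CPM in WT and 34.1, 23.2 and 48.9 CPM in TRPV4-KO livers (log2 fold change 1.32, SE 0.37, edgeR adjusted p 0.16). Itgb2 had 49.4 and 32.6 CPM against 14.2, 9.65 and 27.0 CPM (1.27, SE 0.47, edgeR adjusted p 0.24). On the per-length scale the chains were nearly equal in WT livers, at 13.5 ± 1.43 RPKM for Itgal and 13.4 ± 3.88 RPKM for Itgb2 (SD, n = 2), and again in TRPV4-KO livers at 5.39 ± 1.97 and 5.56 ± 2.95 RPKM (n = 3).

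The other leukocyte chains overlapped between WT and TRPV4-KO livers. Itgax had 12.6 and 4.25 CPM in WT against 2.34, 1.43 and 7.58 CPM in TRPV4-KO (log2 fold change 1.15, SE 0.83, edgeR adjusted p 0.53). Itga4 had 28.8 and 11.2 CPM against 7.65, 5.70 and 14.1 CPM (1.13, SE 0.56, adjusted p 0.36), and Itgb7 had 6.99 and 2.62 CPM against 1.83, 1.62 and 5.33 CPM (0.71, SE 0.59, adjusted p 0.59). For these 3 chains WT replicate 1 was the highest liver and WT replicate 2 lay within the knockout range, and without WT replicate 1 the sign of Itgb7 turned to −0.15. Itgam had 1.73 and 2.10 CPM against 0.44, 0.45 and 2.61 CPM (0.70, SE 0.74, adjusted p 0.68), and 68.7% of its exonic bases overlap another gene model on the same strand, so its level is uncertain.

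**Figure D3:**
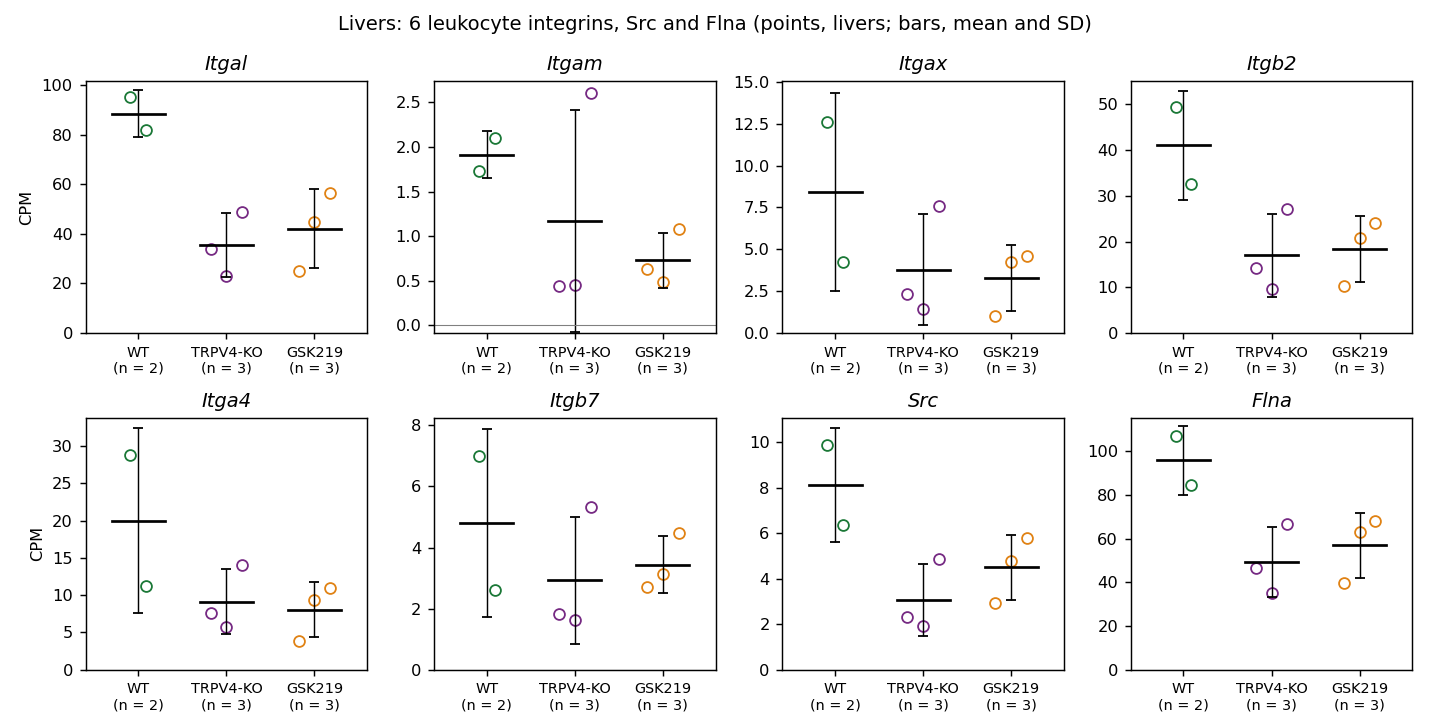
CPM in each liver for the 6 leukocyte integrin chains, Src and Flna, with circles for livers and bars for the mean and SD of each group. Itgal lies at 81.8 CPM or more in WT and at 56.4 CPM or less elsewhere, while Itgax, Itga4 and Itgb7 depend on WT replicate 1.

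Among the focal adhesion components, Src and Flna gave the largest differences between WT and TRPV4-KO livers. Src, a kinase abundant in myeloid cells and platelets, had 9.90 and 6.35 CPM in WT and 2.34, 1.94 and 4.86 CPM in TRPV4-KO livers (log2 fold change 1.41, SE 0.44, edgeR adjusted p 0.18). Flna had 107 and 84.7 CPM against 46.5, 34.9 and 66.6 CPM (0.96, SE 0.30, adjusted p 0.18), and Tln1 had 258 and 230 CPM against 187, 181 and 216 CPM (0.33, SE 0.14, adjusted p 0.28). The groups did not overlap for Src, Flna or Tln1. In the other direction Parva had 91.2 and 95.2 CPM in WT and 98.0, 101 and 101 CPM in TRPV4-KO livers, a log2 fold change of only −0.10. Vcl, Zyx, Ptk2 and Actn4 had log2 fold changes from −0.10 to 0.11, and all overlapped. Ilk had at most 1.43 CPM in any liver, but 89.7% of its exonic bases overlap other genes, so its level is uncertain.

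The matrix-binding chains had fold changes from near 0 to larger ones in the livers. Itgb1, the most abundant family member per length in livers at 48.3 RPKM in WT, had 187 and 208 CPM in WT and 210, 205 and 183 CPM in TRPV4-KO livers (log2 fold change −0.01). Itgav and Itga5 gave 0.07 and 0.07, and Itga1, which fell in PSCs with Yoda1, gave 0.26 with overlapping groups. Itga2b, the αIIb chain of the platelet fibrinogen receptor, had 12.7 and 9.56 CPM against 6.26, 3.82 and 8.68 CPM, and its β partner Itgb3 had 15.9 and 11.9 CPM against 5.50, 3.63 and 11.2 CPM. Neither overlapped, with edgeR adjusted p-values of 0.25 and 0.40. Itga9, an α chain of endothelium and neutrophils, had 51.2 and 49.2 CPM against 24.6, 23.3 and 44.5 CPM (log2 fold change 0.71, SE 0.29, edgeR adjusted p 0.27). Itga8 had 3.77 and 7.17 CPM against 3.35, 2.59 and 5.21 CPM (log2 fold change 0.55), groups that overlapped.

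The antagonist group was compared with the same 2 WT livers, so its differences from WT are not independent of those of the TRPV4-KO group. Between WT and GSK219 livers edgeR called 0 of 34 genes and 0% of all genes, DESeq2 called 0 of 34, and 6 of 34 had an unadjusted p under 0.05, against 8.22% of all genes. Of the 34, 30 were higher on average in WT, against 49.7% of all genes, and 12 were higher without overlap, against 15.6%. No member was lower without overlap, against 11.7%. The median log2 fold change of the leukocyte integrins was 1.23, and 0.65 without WT replicate 1.

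Itgal had 24.98, 44.9 and 56.4 CPM in GSK219 livers (log2 fold change for WT over GSK219 1.07, SE 0.37, edgeR adjusted p 0.54), and Itgb2 had 10.4, 20.7 and 24.1 CPM (1.15, SE 0.47, adjusted p 0.59). Itga4 had 3.90, 9.30 and 11.0 CPM (1.31, SE 0.56, adjusted p 0.60) and Itgam 0.63, 0.48 and 1.08 CPM (1.38, SE 0.76, adjusted p 0.70). All 4 lay below both WT livers, Itga4 only narrowly. Itgax had 1.01, 4.23 and 4.60 CPM (1.36, SE 0.83, adjusted p 0.74) and Itgb7 had 2.71, 3.14 and 4.48 CPM (0.48, SE 0.59, adjusted p 0.91), and both overlapped WT. Without WT replicate 1 the log2 fold change of Itgb7 was −0.40.

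Src had 2.96, 4.77 and 5.80 CPM in GSK219 livers (log2 fold change for WT over GSK219 0.85, edgeR adjusted p 0.68) and Flna 39.8, 63.1 and 67.8 CPM (0.75, adjusted p 0.57). Itga2b had 5.16, 6.46 and 7.41 CPM and Itgb3 3.84, 8.15 and 13.3 CPM, so that Itgb3 overlapped WT and Itga2b did not. Fermt2, whose product is kindlin-2, had 138, 142 and 92.5 CPM in GSK219 against 124 and 122 CPM in WT and 90.6, 108 and 105 CPM in TRPV4-KO livers, and its log2 fold changes were −0.02 and 0.28. Actn1 gave 0.40 against GSK219 and 0.33 against TRPV4-KO, with no overlap in either comparison.

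**Figure D4:**
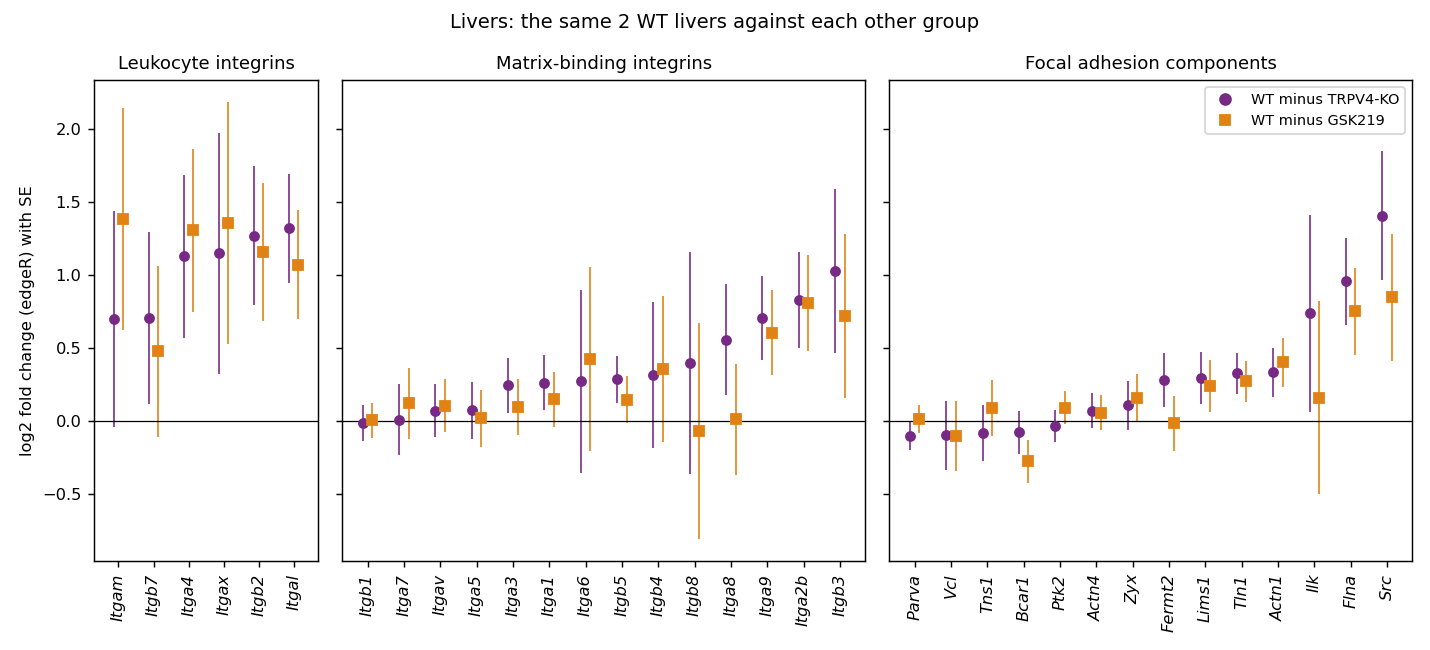
Log2 fold change with its SE for the 34 genes tested in livers, WT over TRPV4-KO (circles) and WT over GSK219 (squares), both against the same 2 WT livers. The leukocyte chains lie between 0.48 and 1.38, and Itgb1, Itgav, Itga5, Vcl and Actn4 lie near 0.

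The knockout and antagonist livers were compared with each other last. EdgeR called 0 of 34 genes, with 0.0992% of all genes called, DESeq2 called 0, and 0 of 34 had an unadjusted p under 0.05, against 6.12% of all genes. Of the 34, 13 were higher and 21 lower in TRPV4-KO, where 52.6% of all genes were higher. Parva was the single gene without overlap, at 98.0 to 101 CPM in TRPV4-KO and 89.4 to 94.3 CPM in GSK219 (log2 fold change 0.12), against 5.85% of all genes higher and 4.35% lower without overlap.

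In each group 1 liver had abundant reads of Xist (replicate 1 of WT and replicate 3 of both other groups), and the other 5 livers had Y-linked reads. In the TRPV4-KO and GSK219 groups the Xist liver was the highest of its group for all 6 leukocyte chains, and in WT for 5 of the 6. Between Xist livers the WT value exceeded TRPV4-KO for 5 of 6 leukocyte chains (Itgal by 0.95, Itgam by −0.48 on the log2 scale) and for 23 of all 34 genes. Between livers with Y-linked reads it did so for 6 of 6 (Itgal by 1.52, Itgam by 1.45) and for 29 of 34. Against GSK219 the leukocyte counts were 6 of 6 and 5 of 6. With this difference as a term in the fit, Itgal and Src were called higher in WT than in TRPV4-KO, where 1.67% of all genes were.

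Summed markers of macrophages, neutrophils and platelets were higher in WT livers, as were those of fibroblasts and of duct epithelium. All 12 macrophage markers had reads, with a summed level of 2096 to 2445 CPM in WT, 598 to 1293 CPM in TRPV4-KO and 634 to 1505 CPM in GSK219 livers, and all 12 neutrophil markers gave 83.6 to 98.0, 6.80 to 17.9 and 6.23 to 16.5 CPM. Lymphocyte markers overlapped, at 5.48 to 12.2, 7.59 to 17.8 and 5.44 to 9.03 CPM. Platelet markers, with Gp1bb at 0 in every liver, summed to 3.73 to 4.08, 2.01 to 3.22 and 1.57 to 3.08 CPM. Of 8 platelet markers only 3 were tested, 2 higher and 1 lower in WT than in TRPV4-KO, and 3 higher than in GSK219. Stellate and fibroblast markers were at 326 to 432, 124 to 278 and 166 to 276 CPM, and the 6 hepatocyte markers were lower in WT, at 60111 to 70661 CPM against 84244 to 104308 and 82632 to 93164 CPM. The hepatic stellate markers overlapped, at 296 to 338, 150 to 321 and 203 to 328 CPM. Endothelial markers summed to 460 to 518 CPM in WT, 292 to 455 CPM in TRPV4-KO and 341 to 474 CPM in GSK219 livers, the last overlapping WT, and duct markers to 695 to 720, 449 to 688 and 518 to 650 CPM. Of 8 duct markers tested, 6 were higher and 2 lower in WT than in TRPV4-KO, and 7 higher and 1 lower than in GSK219. The part of cell content in the integrin values was not tested.

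Of 50 further adhesion site genes outside the family, 45 were tested in PSCs, and 2 rose and 6 fell with Yoda1 at an adjusted p under 0.05, against 2.19% and 2.47% of all genes. Tns4, the gene of tensin-4, had a mean of 36.5 ± 27.0 with DMSO and 268 ± 70.5 with Yoda1 (log2 difference 3.09, limma adjusted p 0.0326) and was named after its values were seen. Parvb, which encodes β-parvin, had a mean of 486 ± 69.8 with DMSO and 1087 ± 74.9 with Yoda1 (log2 difference 1.17, limma adjusted p 0.0102). Csrp1, a LIM protein of actin bundles, fell from 27648 ± 2218 to 16001 ± 299 (log2 difference −0.79, adjusted p 0.00754). Lims2, the second PINCH gene, fell by 0.76, Rsu1, a PINCH partner, by 0.39 and Tln2, the second talin gene, by 0.95 on the log2 scale (adjusted p 0.0129, 0.0194 and 0.0194). Parvb thus rose where Parva was lower, and both PINCH genes were lower, Lims1 without passing. In livers edgeR called 0 of the 46 tested in any comparison, with 13, 7 and 4 at an unadjusted p under 0.05 for WT against TRPV4-KO, WT against GSK219 and TRPV4-KO against GSK219, where 17.1%, 8.22% and 6.12% of all genes were.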

How the data were processed

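Liver and PSC RNA were sequenced as bulk total RNA. The deposited liver table holds raw read counts per gene, with gene coordinates and gene lengths of GRCm38. The deposited PSC values are a signal, read counts divided by the authors by 1 size factor per library. All values of a library were whole multiples of 1 step (100% of 98886 values within 0.01), so reads were recovered. The PSC table lists 16481 genes only, so a gene outside it was not analysed. The submitters' processing notes name HISAT2 2.0.5 and Trim Galore. The counting tool and strand setting are not given in the sources used here. A further 7 count columns that match no sample were not used, and columns with the authors' fold changes and p-values were not used.

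Livers were compared with edgeR 4.0.16 (quasi-likelihood, TMM, filterByExpr with a minimum count of 10, all 8 livers in 1 fit) in R 4.3.3. PSCs were compared with limma 3.58.1 (trend and robust) on log2(value + 1) for genes reaching 10 in 3 or more libraries, so the fold of low genes is understated. DESeq2 1.42.0 was an alternative. P-values were adjusted by Benjamini-Hochberg over all genes tested, in both directions, with a threshold of 0.05 and a log2 difference of 1. Where sources do not say that cultures were separate, p-values measure only the spread between samples. RPKM used the liver table's gene lengths. The fits were tested on simulated data.

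Genes were named with full statistics where the adjusted p was under 0.05 in PSCs, and for leukocyte integrins in livers. Members, lists and tests were chosen with earlier results of these data known. A promoter window was matched by symbol to RefSeq. The labels do not pair same-numbered livers, whose deviations correlated at 0.14 on average (range −0.48 to 0.58).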

Additional observations from a re-analysis of the deposited data

How the results depend on the processing

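In PSCs the 3 genes past the threshold became 7 with no size threshold, 0 when the test was set against the size threshold itself, and 1 to 3 when 1 library was left out. Itgb7 passed in all 6 of those leave-one-out fits, Itga1 was lost without any DMSO library or Yoda1 replicate 2 and Itgal was lost without Yoda1 replicate 1 or 2. Whichever DMSO library was left out, Itgal fell under the filter and was not tested. The replicate block gave 4 genes, adding Itga7 to the 3, and reads divided by the library total gave 3, while limma without trend and robust estimation gave 2, both added after seeing the data. Of all genes, the main fit called 111 higher and 119 lower, no size threshold 331 and 374, and the test against it 0 and 0. The block called 252 and 200, reads divided by the library total 190 and 107, and limma without trend and robust estimation 71 and 82. With 1 library left out, 8 to 113 were called higher and 17 to 167 lower.

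In livers, WT against TRPV4-KO gave 0 genes but 2 with DESeq2, 2 with the replicate block and 2 with the sex-read term (Itgal and Src each time), and from 0 to 4 when 1 liver was left out. The 4, without TRPV4-KO replicate 3, were Itgam, Itga9, Src and Flna, against 3.83% of all genes called higher. The edgeR block, in which 2.32% of all genes were called higher, uses numbers that did not pair the livers. Over all alternatives the adjusted p of Itgal ranged from 0.0118 to 1 and that of Src from 0.0316 to 1. The other 2 liver comparisons gave 0 under every alternative run.

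The sign of Itgb7 turned without WT replicate 1, and with 1 liver left out its log2 fold change for WT ranged from −0.15 to 1.47 against TRPV4-KO and from −0.40 to 1.01 against GSK219. Between TRPV4-KO and GSK219 the leukocyte chains had no stable sign. Itgax turned to −0.046 with the replicate block and −0.013 with the sex-read term. With 1 liver left out, the log2 fold changes ranged from −0.80 to 0.60 for Itgax, from −0.995 to 0.060 for Itgb7, from −0.63 to 0.17 for Itgb2, from −0.70 to 1.08 for Itgam, from −0.28 to 0.47 for Itga4 and from −0.56 to 0.019 for Itgal. The cause of these changes was not tested. Itgal and Itgb7 rested on as few as 8 reads in a PSC library, and intervals cover the spread between 2 or 3 samples only.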
